A study of Rattus norvegicus with 6 samples.

Results

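The genes described here write, read or recruit methylation of lysine 9 of histone H3 (H3K9). They were taken by symbol from the deposited gene table: the methyltransferase genes Suv39h1, Suv39h2, Ehmt1, Ehmt2, Setdb1 and Setdb2, the heterochromatin protein 1 (HP1) genes Cbx1, Cbx3 and Cbx5, and Trim28. Of the 10 symbols, 9 matched a row among 30560 genes, and all 9 passed the filter on low counts. Suv39h1 matched no symbol and is not analysed here. A row without a symbol, which the authors' protein column describes as rat SUV39H1 isoform X1, was listed at 0 in every library and was not taken as the gene, since whether it is that gene or a related copy is not known from the table.

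The cells were mesenchymal stem cells of the rat, a stromal cell type able to give rise to skeletal and fat cells, labelled wild type. All cells in all 6 libraries had received 200 nM doxorubicin, an anthracycline that damages DNA and is used to bring on senescence, for 24 hours. They were then kept in fresh medium for 6 days with vehicle (Dox, 3 libraries) or with 100 µg/ml of a preparation named SMNV in the labels, which the labels do not spell out (SMNV, 3 libraries). Cells without doxorubicin were not analysed here, so every difference below is one between doxorubicin-treated cells with and without SMNV, and none shows what doxorubicin itself did. The labels do not say whether the libraries of a group came from separate cultures or animals. The p-values therefore set the difference between the groups against the spread between these libraries, which may be technical.

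In mammals methylated H3K9 marks silent chromatin. The SUV39H enzymes trimethylate it mainly at the repeats around centromeres, the EHMT pair (G9a, encoded by Ehmt2, and GLP, encoded by Ehmt1) works as a heterodimer that mono- and dimethylates it in euchromatin, and SETDB1 trimethylates it at retroelements to which TRIM28 brings it. HP1 proteins bind the mark through their chromodomain and compact the chromatin. Heterochromatin of this kind is known for its loss at repeats and its gathering into foci in senescent cells.

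In the SMNV libraries Ehmt2 and Cbx1 stood higher, Cbx5 and Setdb2 somewhat lower, and Ehmt1 slightly higher. Of the 9 members, 3 rose and 2 fell by edgeR's quasi-likelihood test at an adjusted p below 0.05, and 4 did not pass. That is 55.6% of the members, against 60.4% of the 12614 tested genes (30.5% higher and 29.9% lower), so the share of members called is near the background. The members' median log2 fold change was 0.08, against -0.01 over all tested genes. The groups did not overlap in CPM (counts scaled to a common library size with TMM factors) for 7 of 9 members and for 66.9% of tested genes.

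The promoters of the gene with the largest change and of the HP1 genes, which moved in unlike ways, are shown here. Each window is RefSeq sequence of the build GRCr8, 5′ to 3′ on the gene's strand, from 250 bases before to 50 bases after the annotated start. Capitals mark the letters of a searched motif.
Ehmt2 promoter window, chr20:3940661-3940960, minus strand: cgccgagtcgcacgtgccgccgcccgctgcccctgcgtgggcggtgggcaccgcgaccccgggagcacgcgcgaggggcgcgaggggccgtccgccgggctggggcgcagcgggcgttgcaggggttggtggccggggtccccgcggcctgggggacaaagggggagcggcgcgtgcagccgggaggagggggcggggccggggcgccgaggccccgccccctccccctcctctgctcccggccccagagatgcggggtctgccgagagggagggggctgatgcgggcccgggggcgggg
Cbx1 promoter window, chr10:82266512-82266811, plus strand: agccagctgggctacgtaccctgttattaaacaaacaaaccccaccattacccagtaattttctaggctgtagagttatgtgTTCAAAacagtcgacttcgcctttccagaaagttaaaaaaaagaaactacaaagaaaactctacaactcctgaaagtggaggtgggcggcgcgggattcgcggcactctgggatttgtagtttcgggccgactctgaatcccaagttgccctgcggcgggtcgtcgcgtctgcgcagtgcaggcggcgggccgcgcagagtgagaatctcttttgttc
Cbx3 promoter window, chr4:81876429-81876728, plus strand: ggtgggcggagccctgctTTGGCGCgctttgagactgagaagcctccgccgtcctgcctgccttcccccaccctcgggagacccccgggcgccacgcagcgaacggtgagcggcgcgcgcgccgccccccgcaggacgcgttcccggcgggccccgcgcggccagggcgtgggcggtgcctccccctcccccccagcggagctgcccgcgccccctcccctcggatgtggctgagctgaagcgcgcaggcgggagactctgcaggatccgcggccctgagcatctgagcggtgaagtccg
Cbx5 promoter window, chr7:136229069-136229368, minus strand: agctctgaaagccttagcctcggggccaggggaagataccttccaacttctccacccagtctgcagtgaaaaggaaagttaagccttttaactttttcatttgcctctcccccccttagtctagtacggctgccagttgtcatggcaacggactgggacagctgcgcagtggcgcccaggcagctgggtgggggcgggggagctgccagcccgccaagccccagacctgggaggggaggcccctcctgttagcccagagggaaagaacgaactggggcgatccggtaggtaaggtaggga
The motifs searched, on both strands and with overlaps allowed, were the E2F cores TTCGCGC and TTGGCGC, the CHR element TTTGAA of cell cycle promoters and the CCAAT box CCAAT. Cbx3 held 1 E2F core, which 3.66% of 33469 windows in the table hold in either form. Cbx1 held 1 CHR on the reverse strand, a motif found in 18.3% of windows, and the Ehmt2 and Cbx5 windows held none of these letters. The Ehmt2 window was 82.7% G and C with 41 CpG dinucleotides, where the median window has 51.7% and 7, and 99.7% of windows had a lower GC content. The windows of Cbx3, Cbx5 and Cbx1 had 76.3%, 60% and 51.3%. RefSeq places an outer start of Cbx5 farther upstream than this window, where the gene overlaps Hnrnpa1.

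Among the methyltransferases, Ehmt2, which encodes G9a, changed most. Its CPM were 33.1, 45.8 and 39.4 in Dox 1, 2 and 3 and 140, 114 and 143 in SMNV 1, 2 and 3. Every SMNV library stood far above every Dox library, with the lowest SMNV value in SMNV 2. The means were 39.4 ± 6.38 and 133 ± 15.7 CPM (SD, n = 3), a rise of 3.36-fold, or 1.75 ± 0.11 on the log2 scale with its SE (adjusted p = 8.0e-09, edgeR). Of all tested genes, 98.2% changed by less. Its partner Ehmt1, which encodes GLP, had 65.5, 69.4 and 67.8 CPM in Dox and 78.0, 78.8 and 74.0 in SMNV. The groups were separate by a narrow margin, and the log2 fold change of 0.19 ± 0.06 passed (adjusted p = 0.0206, edgeR). The rise of Ehmt1 was not called without Dox 3 (adjusted p = 0.0678) or SMNV 2 (0.0542), nor on the authors' TPM (transcript abundances scaled by length), where the log2 fold change was 0.07 (adjusted p = 0.41, limma).

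Setdb1, the enzyme that TRIM28 recruits, had 61.9, 58.5 and 61.0 CPM in Dox and 58.7, 55.2 and 57.3 in SMNV. The ranges overlapped and the log2 fold change of -0.08 ± 0.07 did not pass (adjusted p = 0.30, edgeR). On TPM it was called lower, at -0.24 (adjusted p = 0.0258, limma), so its call differed between the deposited tables, each with its own test. Setdb2, a related SET domain gene, had 14.3, 14.3 and 14.2 CPM in Dox and 11.0, 12.7 and 11.4 in SMNV. All SMNV libraries were below all Dox libraries, and it fell by 0.29 ± 0.11 on the log2 scale (adjusted p = 0.0300, edgeR). This call was lost without Dox 2, Dox 3, SMNV 1 or SMNV 3 (adjusted p 0.0548, 0.0660, 0.11 and 0.0992), without a filter (0.0578) and with DESeq2 (0.0557), and on TPM it held at -0.39 (adjusted p = 0.00760, limma). In the RefSeq annotation the span of Setdb2 overlaps that of Cab39l by 13 bases and the span of Setdb1 that of Cers2 by 68 bases. Cab39l fell by 0.38 on the log2 scale and Cers2 by 0.39. No source used here says whether the counting used strand, so reads from such neighbours may not be told apart.

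Suv39h2, which encodes the less widely expressed SUV39H enzyme, was the scarcest member, with 76 to 127 counts a library. It had 4.53, 4.52 and 3.75 CPM in Dox and 5.04, 5.95 and 4.79 in SMNV. The groups were separate, but the log2 fold change of 0.30 ± 0.17 did not pass (adjusted p = 0.14, edgeR). In the RefSeq annotation the span of Suv39h2 shares 10201 bases with that of LOC120097881, a long noncoding RNA gene, the longest overlap of any member; that RNA is not analysed here. Trim28, the corepressor also called KAP1, was among the most abundant members at 184, 187 and 178 CPM in Dox and 190, 193 and 194 in SMNV. All SMNV libraries were slightly higher, yet its log2 fold change was 0.08 ± 0.06 (adjusted p = 0.28, edgeR), and on TPM -0.04.

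The 3 HP1 genes went different ways. Cbx1, encoding HP1 beta, had 33.0, 31.8 and 33.2 CPM in Dox and 48.0, 47.2 and 53.1 in SMNV. The Dox libraries lay close together and all SMNV libraries above them, a rise of 1.51-fold and a log2 fold change of 0.60 ± 0.08 (adjusted p = 1.4e-05, edgeR). With per-library offsets that remove a trend with gene length, the log2 fold change of Cbx1 was 0.37 (adjusted p = 7.5e-04). Cbx5, encoding HP1 alpha, had 77.1, 68.8 and 73.6 CPM in Dox and 62.7, 59.7 and 59.5 in SMNV. The groups did not overlap and it fell by 0.27 ± 0.07 on the log2 scale (adjusted p = 0.00327, edgeR), by 0.50 with the length offsets, and by 0.11 without a call on TPM (adjusted p = 0.11, limma). Cbx3, encoding HP1 gamma, had 178, 159 and 173 CPM in Dox and 174, 181 and 172 in SMNV. Its groups overlapped, and its log2 fold change of 0.05 ± 0.06 did not pass (adjusted p = 0.54, edgeR). The sign of the Cbx3 value turned on TPM (-0.07) and with the length offsets (-0.14), without a call in either.

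**Figure D1:**
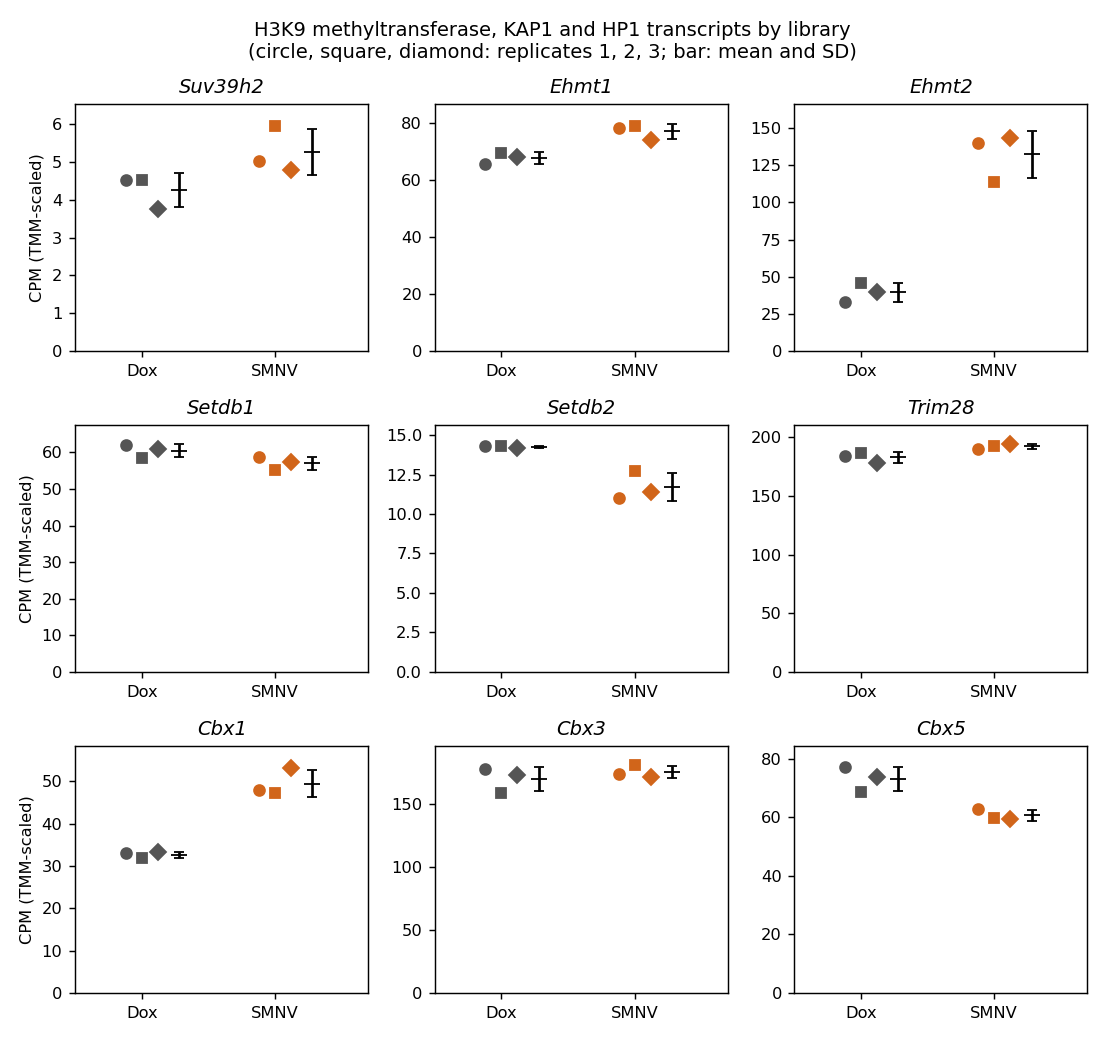
CPM of the 9 members (y axis, TMM-scaled, from 0) in each library by group (x axis); marks give replicates 1, 2 and 3, and the bar to the right of each group its mean and SD (n = 3). Ehmt2 and Cbx1 are clearly higher in all SMNV libraries, Cbx5 and Setdb2 are lower, and the groups of Setdb1 and Cbx3 overlap.

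Gene length moved with the fold changes over the whole table, and the HP1 genes Cbx1 and Cbx5 are both listed as short. Among the shortest 2525 tested genes (135 to 1596 bases), which holds both, the median log2 fold change was 0.12, with 36.0% higher and 18.2% lower. In the longest 2523 (4432 bases and more), which holds Ehmt1 and Setdb1, it was -0.14, with 24.1% higher and 42.5% lower. By the listed lengths, which the offsets also used, Cbx1 and Cbx5 are in the same class, and they moved in opposite directions. Their TPM do not follow these lengths: in Dox Cbx1 had means of 32.7 CPM and 108 TPM, and Cbx5 73.2 CPM and 118 TPM. Whether length had a part in their changes was not tested. The rise of Ehmt2, listed at 4138 bases, was 1.72 with the length offsets. On TPM the median over all tested genes shifted from -0.01 to -0.10, and 39.8% of called genes were higher in place of 50.4%. With the length offsets the shift was also to -0.10.

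**Figure D2:**
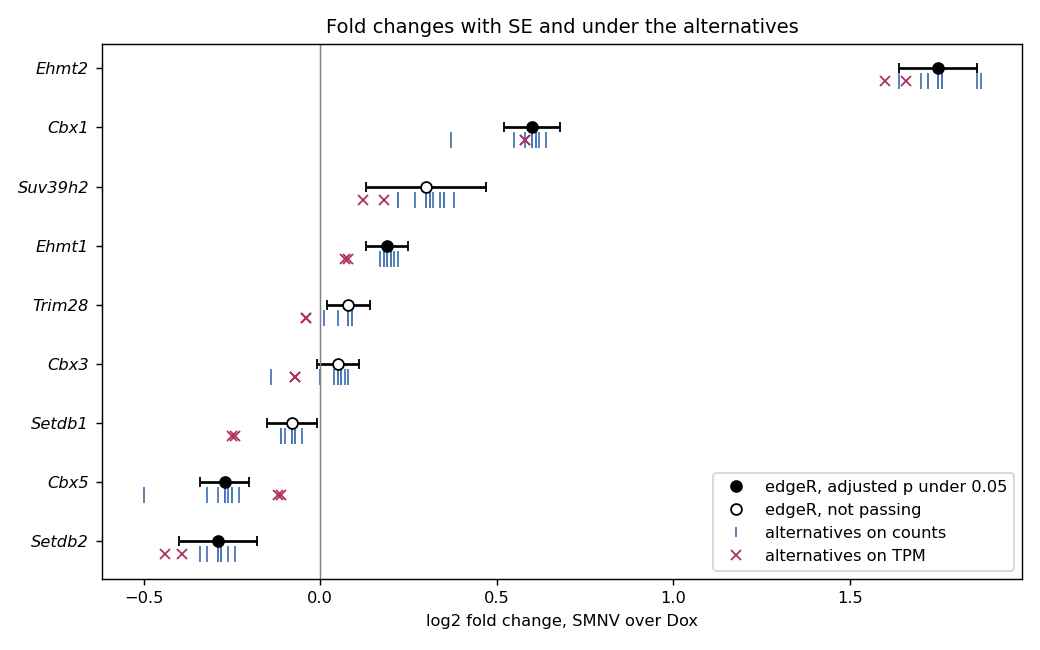
Log2 fold change of SMNV over Dox for each member (x axis); points with bars are the edgeR values ± SE, filled where the adjusted p was below 0.05, and the marks beneath are the values under the alternatives, on counts or on TPM. Ehmt2 at 1.75 and Cbx1 at 0.60 stay above 0 throughout, and Cbx3 and Trim28 cross 0.

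Levels of different genes can be compared per length, on TPM. Cbx3 was the most abundant member in both groups, with a mean of 218 ± 12.8 TPM in Dox and 207 ± 5.91 in SMNV (SD, n = 3). In Dox it was followed by Trim28 (121 ± 3.13), Cbx5 (118 ± 3.26) and Cbx1 (108 ± 2.08), of which Trim28 and Cbx5 overlapped in range. In SMNV Cbx1 stood in second place at 162 ± 12.7 TPM, above Trim28 (117 ± 2.49) and Cbx5 (109 ± 2.41), with no overlap between neighbours. On counts the order of Cbx1 and Cbx5 did not switch, although their listed lengths, 1152 and 1161 bases, are nearly equal. The count ratio of Cbx1 to Cbx5 was 0.427 to 0.463 in Dox and 0.765 to 0.892 in SMNV, with Cbx5 ahead in all libraries. The methyltransferase transcripts were scarcer. In Dox the order was Ehmt1 (25.4 ± 0.755), Setdb1 (24.5 ± 0.865), Ehmt2 (14.1 ± 2.11), Setdb2 (9.48 ± 0.533) and Suv39h2 (1.96 ± 0.208), and only Ehmt1 and Setdb1 overlapped among these neighbours. In SMNV Ehmt2 led the methyltransferases at 44.7 ± 6.33 TPM, ahead of Ehmt1 (26.8 ± 1.30) and Setdb1 (20.6 ± 1.12), with no overlap.

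A ratio of paralogs within a library does not depend on how libraries are scaled. The TPM ratio of Ehmt2 to Ehmt1 was 0.483, 0.616 and 0.560 in Dox and 1.75, 1.39 and 1.87 in SMNV. Ehmt1 was thus the more abundant partner in all Dox libraries and Ehmt2 in all SMNV libraries, a difference of 1.59 on the log2 scale (exact permutation p = 0.10, two-sided, the smallest that 3 against 3 allows). The TPM ratio of Cbx1 to Cbx5 was 0.878, 0.947 and 0.928 in Dox and 1.54, 1.38 and 1.54 in SMNV, a log2 difference of 0.70. On counts Cbx5 stood above Cbx1 in all libraries of both groups. The TPM ratio of Cbx1 to Cbx3 was 0.465, 0.532 and 0.497 in Dox and 0.812, 0.707 and 0.835 in SMNV, a log2 difference of 0.65. Both differences in Cbx1 ratios had no overlap between groups and the same smallest p of 0.10 (exact permutation test). The Setdb1 to Setdb2 ratio (log2 difference 0.20, exact permutation p = 0.20) and the Cbx3 to Cbx5 ratio (0.04, exact permutation p = 0.40) overlapped between the groups. On counts in place of TPM neither overlapped: the Cbx3 to Cbx5 ratio was 2.31 to 2.35 in Dox and 2.77 to 3.03 in SMNV, a log2 difference of 0.32, and that of Setdb1 to Setdb2 differed by 0.21. After adjustment over the 5 ratios the smallest exact permutation p was 0.167.

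The HP1 transcripts together summed to 444 ± 15.5 TPM in Dox and 478 ± 15.7 in SMNV (SD, n = 3). Within this sum the share of Cbx1 was 23.3%, 25.4% and 24.5% in Dox and 34.7%, 31.9% and 35.1% in SMNV. Cbx3 took 49.0 ± 1.21% and 43.3 ± 1.59%, and Cbx5 26.6 ± 0.251% and 22.8 ± 0.246% (n = 3). The 5 measured methyltransferase genes summed to 75.4 ± 2.23 TPM in Dox and 101 ± 6.98 in SMNV. Ehmt2 made up 16.3%, 20.8% and 18.8% of that sum in Dox and 45.6%, 39.9% and 46.5% in SMNV, while Setdb1 took 32.5 ± 2.11% and 20.4 ± 0.453%. Suv39h2 took 2.60 ± 0.302% and 2.21 ± 0.366%. Neither sum includes Suv39h1.

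**Figure D3:**
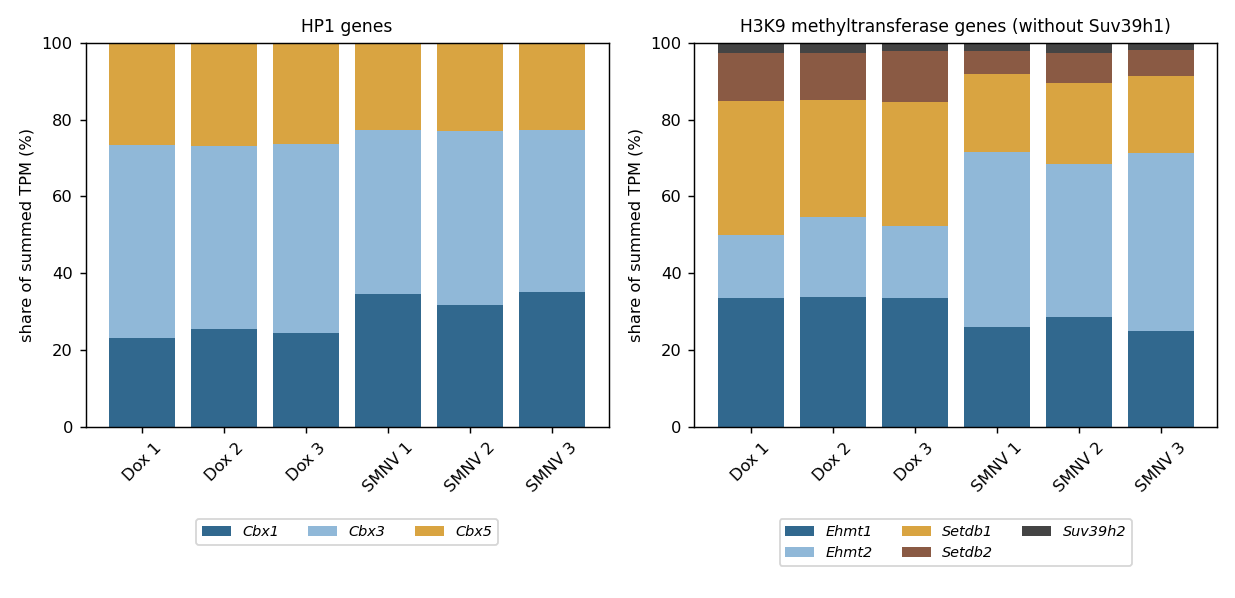
Share of each gene in the summed TPM of its family (y axis, %) in each of the 6 libraries (x axis), for the HP1 genes (left) and the H3K9 methyltransferase genes without Suv39h1 (right). The Cbx1 share is 23.3% to 25.4% in Dox and 31.9% to 35.1% in SMNV, and the Ehmt2 share 16.3% to 20.8% and 39.9% to 46.5%.

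Of the cofactors that act with these enzymes, 2 of 11 tested were called higher, 5 were called lower and 4 did not pass (median log2 fold change -0.24). The share called was 63.6%, near the 60.4% of all tested genes, and 7 of the 11 are among the longest 2523 genes. Wiz, a zinc finger partner of the G9a and GLP dimer, had 21.0, 26.5 and 23.7 CPM in Dox and 48.1, 43.1 and 51.5 in SMNV, and it rose by 1.0 ± 0.10 on the log2 scale (adjusted p = 8.6e-07, edgeR). It rose with Ehmt2 while Zfp644, another zinc finger partner of G9a that was chosen after its values were seen, fell by 0.26 ± 0.08. Atf7ip, the nuclear partner that stabilises SETDB1, had 123, 118 and 124 CPM in Dox and 105, 93.5 and 92.9 in SMNV, and fell by 0.32 ± 0.07 (adjusted p = 7.6e-04, edgeR). Prdm2, a PR domain H3K9 methyltransferase, fell by 0.36 ± 0.07, and Rif1, a telomere and replication timing factor, by 0.62 ± 0.10.

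The HUSH complex recruits SETDB1 and MORC2 to retroelements and integrated transgenes. All 7 tested genes of the HUSH and MORC list fell (6 of 7 on TPM and without SMNV 3). Of all tested genes, 60.4% were called and 29.9% were called lower. Their log2 fold changes ran from -0.57 to -0.20 around a median of -0.49. Mphosph8, the chromodomain subunit that binds methylated H3K9, had 239, 221 and 236 CPM in Dox and 170, 159 and 159 in SMNV, and fell by 0.51 ± 0.06 (adjusted p = 5.4e-06, edgeR). Tasor, the scaffold subunit, had 58.3, 50.7 and 57.1 CPM in Dox and 39.3, 37.3 and 35.0 in SMNV. It fell by 0.57 ± 0.08, as did Pphln1, the periphilin subunit, by 0.57 ± 0.08, and Tasor2, the paralog of Tasor, fell by 0.49 ± 0.08. On CPM every gene of this list was lower in all SMNV libraries than in all Dox libraries, where 66.9% of tested genes had groups that did not overlap, in either direction. On TPM Morc3, a MORC family ATPase gene chosen after its values were seen, had 54.9, 57.7 and 61.1 in Dox and 79.8, 45.9 and 77.3 in SMNV, so its mean was higher there and its groups overlapped. Of the 7, 4 are among those longest 2523 genes, where 42.5% of all genes were lower, and all 7 stayed lower with the length offsets.

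Of 10 tested H3K9 demethylase genes, 3 rose and 5 fell (median -0.14), a share called of 80.0% against 60.4% of all tested genes. Of the 10, 8 are among the longest 2523 genes, where 42.5% of all genes were lower. Kdm4b, which removes the trimethyl mark, had 16.8, 21.1 and 20.2 CPM in Dox and 40.0, 39.4 and 39.1 in SMNV, a log2 fold change of 1.03 ± 0.10 (adjusted p = 4.3e-07, edgeR). Its paralog Kdm4c had 57.5, 52.8 and 56.0 CPM in Dox and 40.0, 38.5 and 36.3 in SMNV, and fell by 0.53 ± 0.08. Among the PHD finger genes Phf2 rose by 0.74 ± 0.07, and Kdm7a, whose product acts on the mono- and dimethyl marks, fell by 1.09 ± 0.12. Related genes of the list, chosen after their values were seen, were Phf8 and Kdm4a. Phf8 did not pass, at -0.12 ± 0.07 (adjusted p = 0.14, edgeR), and Kdm4a rose by 0.33 ± 0.07 (adjusted p = 9.7e-04, edgeR). The count of falling demethylase genes was 3 in place of 5 under some settings, among them fits without Dox 2, SMNV 1 or SMNV 3. Kdm4d and Hr did not pass the filter, with 1.02 CPM (unscaled) as their highest value.

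Among 18 tested partners of HP1 and other heterochromatin factors, 5 were called higher, 8 lower and 5 neither (median -0.07), a share called of 72.2% against the 60.4%. Of the 18, 10 are among the longest 2523 genes. Incenp, the inner centromere scaffold of the Aurora B complex, had 26.5, 29.9 and 30.6 CPM in Dox and 92.5, 77.9 and 92.8 in SMNV, and rose by 1.60 ± 0.09 (adjusted p = 2.4e-09, edgeR). Sgo1, the shugoshin that guards centromeric cohesion, rose by 1.27 ± 0.09, and Uhrf1, which reads hemimethylated DNA and H3K9 methylation, by 0.76 ± 0.09. Nsd1, an H3K36 methyltransferase gene, had 172, 166 and 175 CPM in Dox and 127, 103 and 106 in SMNV and fell by 0.61 ± 0.08. Of the H4K20 methyltransferases that work with HP1, Kmt5c rose from 6.10 ± 1.29 to 15.3 ± 2.51 CPM (n = 3), by 1.33 ± 0.16 on the log2 scale (adjusted p = 6.7e-06, edgeR). Kmt5b fell by 0.20 ± 0.08 (adjusted p = 0.0422), a call that was lost without Dox 3, SMNV 2 or SMNV 3 (adjusted p 0.21, 0.15 and 0.19) and in the fit with the replicate block (0.0566). Kmt5a did not pass, at 0.01 ± 0.06.

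**Figure D4:**
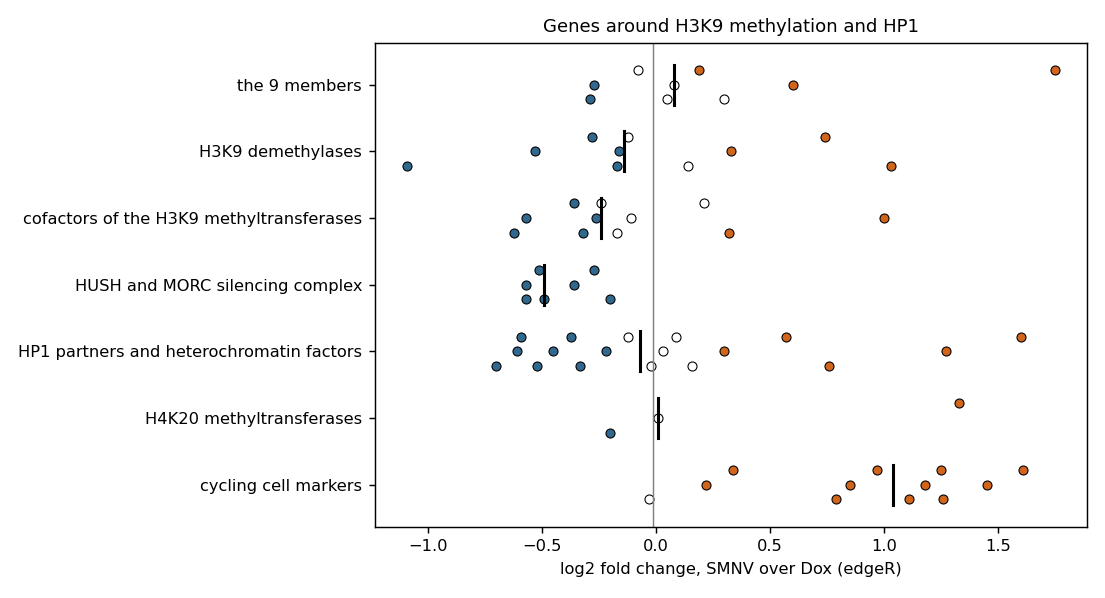
Log2 fold change of SMNV over Dox (x axis) for each tested gene of the members and of 6 related lists (y axis); orange points rose, blue points fell, open points did not pass, black bars are list medians and the grey line the median of all tested genes (-0.01). All 7 points of the HUSH and MORC list lie below 0, and 11 of 12 cycling cell markers rose. Of all tested genes, 29.9% were called lower and 30.5% higher.

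The cycling markers moved with these changes. Of 12 tested, 11 rose and 1 did not pass, a share called of 91.7% against 60.4% of all tested genes (30.5% higher). Their summed level ran from 1134 to 1238 unscaled CPM in Dox and from 1988 to 2095 in SMNV. These markers therefore stood higher in the same libraries as Ehmt2, Cbx1 and Incenp, and their part in those changes was not tested. In human and mouse cells, MDM2 is known to promote degradation of SUV39H1 and p21 to act on its transcription, which cannot be followed here at the RNA of Suv39h1. Mdm2 had 193, 168 and 181 CPM in Dox and 44.3, 48.1 and 49.3 in SMNV, and Cdkn1a, the p21 gene, fell by 1.34 ± 0.08 on the log2 scale. In bulk RNA, fewer cells expressing a gene and less of its RNA per cell cannot be told apart.

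Other annotated neighbours of members were also read. Hnrnpa2b1 starts within 1000 bases of Cbx3 on the other strand, and its log2 fold change of -0.12 ± 0.06 did not pass (adjusted p = 0.11, edgeR), as for Cbx3; on TPM and with the length offsets Hnrnpa2b1 was called lower, at -0.29 and -0.30. Hnrnpa1, which overlaps the outer start of Cbx5 and was chosen after its values were seen, fell by 0.21 ± 0.06 (adjusted p = 0.00810), the direction of Cbx5, and lost its call without SMNV 2 (0.0541). Chmp2a, whose span overlaps Trim28, did not pass at -0.13 ± 0.07 (adjusted p = 0.15), and was called lower on TPM (-0.25) and with the length offsets (-0.37). Of 26 rows annotated as Cbx3-like copies, 1 had any counts, at most 9.03 in a library, so few reads were assigned to such copies.

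Over the series, the libraries held 18640909 to 21506967 estimated counts. All 8 stromal markers passed the filter, and of these 4 rose, 2 fell and 2 did not pass, a share called of 75.0% against 60.4% of all tested genes. Among the risers Col1a1 had means of 19553 and 41417 CPM in Dox and SMNV and Vim 2683 and 4492. The markers that fell were Itgb1, at 3417 and 2188, and Cd44, at 377 and 178, while Nt5e, which was singled out after its values were seen, was low at 1.94 and 1.78. The haematopoietic list summed to 7.25 to 8.68 unscaled CPM in Dox and 6.17 to 7.35 in SMNV, with Ptprc, Cd34 and Itgam at 0 in every library and only Cd14 and Csf1r tested; Csf1r fell by 0.91. The endothelial list summed to 1.45 to 3.04 CPM in Dox and 1.27 to 2.33 in SMNV, with Cdh5 and Kdr at 0, and the epithelial list to 0.698 to 1.18 and 1.02 to 1.28, with Krt18 at 0.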

How the data were processed

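The authors deposited estimated counts per gene, not normalized, and TPM values, per the file headers and the values; both tables also give a gene length. Per the submitters' processing notes, the build was mRatBN7.2 and the tools were fastp, HISAT2 and HTSeq, in an order not stated. No source used here gives the strand setting or annotation release. Of the values above 0, 17.9% to 18.8% per library had decimals, and estimated counts were rounded to whole numbers, although the design had assumed plain counts.

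Genes passing filterByExpr (12614) were scaled by TMM and compared with edgeR 4.0.16 (quasi-likelihood F test, group as the only term, R 4.3.3); p-values are two-sided and Benjamini-Hochberg adjusted over all tested genes. SE is the absolute log2 fold change over the square root of F. Alternatives used limma 3.58.1, DESeq2 1.42.0, log2(TPM + 1) or log2(TPM + 0.1), other scalings, length offsets (loess, span 0.5) and libraries left out. The code was tested on simulated data. No libraries were duplicates: correlations of log2 CPM were 0.989 to 0.992 within groups.

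Members and lists were chosen with earlier results of these data known. Named genes were all members, up to 4 per list with the smallest p, Mdm2, Cdkn1a and annotated neighbours; others are marked. Some genes that the rule takes are left out here. Symbols, neighbours and promoters came from NCBI RefSeq tables of GRCr8; promoter windows were found for all 10 symbols. Lbr is not analysed here.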

Additional observations from a re-analysis of the deposited data

How the results depend on the processing

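The rises of Ehmt2 (log2 fold change 1.60 to 1.87) and Cbx1 (0.37 to 0.64) kept their direction and their call under all alternatives run. The number of members lower was 1 in place of 2 without a filter and with DESeq2, and 1 to 2 when a library was left out; the lost call was that of Setdb2. On TPM 2 members were lower, Setdb1 and Setdb2. The number of members higher was 2 or 3 throughout. The Cbx1 to Cbx5 log2 difference was 0.87 and the Cbx3 to Cbx5 difference 0.32 when counts replaced TPM; the cause was not tested. Applied to the lists after seeing the data, the alternatives gave 3 falling demethylase genes with upper quartile scaling, no filter, DESeq2 or the replicate block and 3 to 4 without a library, 1 rising cofactor gene with length offsets, and 0 falling H4K20 genes with no filter, DESeq2, length offsets or the replicate block and 0 to 1 without a library. Labels give both groups the same replicate numbers, but same-numbered libraries did not deviate together (correlations 0.01, -0.12 and 0.00), so the numbers were not taken as pairs; with the replicate block 3 members were higher and 2 lower, as without it. Suv39h2, with 76 to 127 counts a library, had the largest SE among the tested members, 0.17.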

Other observations

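Some chromobox genes outside the HP1 family, whose products belong to Polycomb complexes, were read after their values were seen. Cbx2, Cbx6 and Cbx8 rose by edgeR's quasi-likelihood test. Cbx6 had 87.8 ± 11.9 CPM in Dox and 145 ± 13.1 in SMNV (n = 3) and rose by 0.73 ± 0.09 on the log2 scale (adjusted p = 8.8e-06, edgeR). Cbx2 and Cbx8 rose by 0.89 ± 0.16 and 0.83 ± 0.16. Cbx7 was below the filter at means of 0.342 and 0.509 unscaled CPM. Hp1bp3, a linker-histone-like protein gene that binds HP1, rose by 0.26 ± 0.06 (adjusted p = 0.00148), and was not called on TPM (0.14, adjusted p = 0.0682, limma).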
